A study of Mus musculus with 10 samples.

Results

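The response of the bladder to LPS in mice without PAR1 was described on 3 of the 10 arrays of the series: PAR1-/- bladders 4 h after LPS, PAR1-/- bladders 24 h after LPS and PAR1-/- bladders 24 h after saline. All probes were compared, the LPS arrays each against the saline array, and genes were sorted into those beyond 3-fold at both times and those beyond it at 1 time. The mice were females carrying a disrupted PAR1 gene (F2r) on a C57BL/6J background, and C57BL/6J mice (WT) served as their controls. Under anesthesia the bladder was filled with LPS at 100 μg/ml or with pyrogen-free saline. The series also holds arrays 4 h and 24 h after SP (substance P). The sample records give SP at 20 μM for PAR1-/- and 10 μM for WT bladders. Each array was hybridized with radioactively labelled cDNA from 1 pool of 8 whole bladders, so every condition has 1 array and no p-value or replicate error exists for any ratio. Saline was measured at 24 h alone, which means that the 4 h comparison spans a difference in time as well as in challenge. In whole bladders fewer cells of a type and less RNA per cell cannot be told apart.

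LPS is the lipopolysaccharide of the outer membrane of Gram-negative bacteria, such as the Escherichia coli that cause most bladder infections. Cells sense it through TLR4 with its partners CD14 and MD-2 (Ly96), and signals through MYD88 and NF-kappaB switch on cytokines, chemokines and adhesion molecules. PAR1 is a G protein-coupled receptor that thrombin and other proteases open by cutting its extracellular end. Bladder urothelium and smooth muscle carry it, and it is known for linking coagulation and mast cell proteases to inflammation.

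Whole-number spot intensities were recovered from the deposited scores for 4973 of 5030 probes, which stand for 4945 genes when each unnamed probe counts as a gene. The background thresholds, 3 SD above the mode of each array, were 11.7 for saline, 17.6 for LPS at 4 h and 18.2 for LPS at 24 h, and 37.1%, 40.5% and 38.5% of the probes lay above them. The LPS arrays were brighter as a whole, with median intensities of 15 and 16 against 10 after saline. Where the saline value of a gene was under background, its normalized ratio is given as "at least", and where the LPS value was, as "at most". Between the PAR1-/- and WT saline arrays, which also differ in genotype, 1234 probes above background on both had an SD of 0.48 in their log2 difference (1.39-fold), and 9 of them were more than 3-fold apart. Gene names were taken as given, and these values do not show that each name belongs to its row. The 34 pairs of probes that carry the same gene name had a median correlation of 0.10 over the 10 arrays. Only 4 of these pairs had both probes above background on at least 5 arrays, with a median of -0.13, and all pairs of the 1889 probes that bright had a median of 0.24. Of the markers of the tissue, 3 of 9 smooth muscle probes and 3 of 13 urothelial probes were above background on all 3 arrays. Each gene name below stands for the probe that bears it.

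The disrupted gene, F2r, had intensities of 11 after saline, 17 at 4 h and 18 at 24 h, under background on all 3 arrays. The WT arrays gave 10 after saline and 195 at 4 h after LPS, at least 9.12-fold, and 15 at 24 h. On that last array 86.9% of the probes hold the value 15. Which F2r sequence the probe holds is unknown here, so its values check no genotype. F2rl2 (PAR3) had 9, 12 and 15 and was under background on all 3 arrays. F2rl3 (PAR4) had 8, 11 and 20, and only the value at 24 h after LPS was above background.

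Few genes were beyond 3-fold in PAR1-/- bladders. At 4 h after LPS 35 of 2136 genes with a ratio or bound exceeded saline by more than 3-fold (1.64%) and 21 were more than 3-fold lower (0.983%). At 24 h the numbers were 24 of 2225 higher (1.08%) and 23 lower (1.03%). Of 2028 genes with a ratio or bound at both times, 5 were higher at both (0.247%) and 11 were lower at both (0.542%). Because both ratios of a gene share the saline array, a low or high saline value moves them together. Of the higher genes, 14 of 35 at 4 h and 13 of 24 at 24 h were beyond 3-fold under each of 4 normalizations, and of the lower genes 12 of 21 and 15 of 23. Before normalization the median probe stood at 1.46 and 1.5 times saline, so ratios above saline are larger there. The lower genes were mostly not beyond 3-fold without it: 11 of 21 probes at 4 h and 15 of 23 at 24 h had an intensity under that of saline before normalization. The others lay at or above it and were lower only after normalization. The regression slopes were 0.784 for the saline array and 1.12 and 1.19 for the LPS arrays at 4 h and 24 h. Dividing by them spreads bright saline values more than bright LPS values. The lower genes were also bright to begin with, at a median of the 98.7th percentile of the saline array, against the 72.8th for the higher genes. The part of the slopes in these ratios and in this brightness was not tested.

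**Figure D1:**
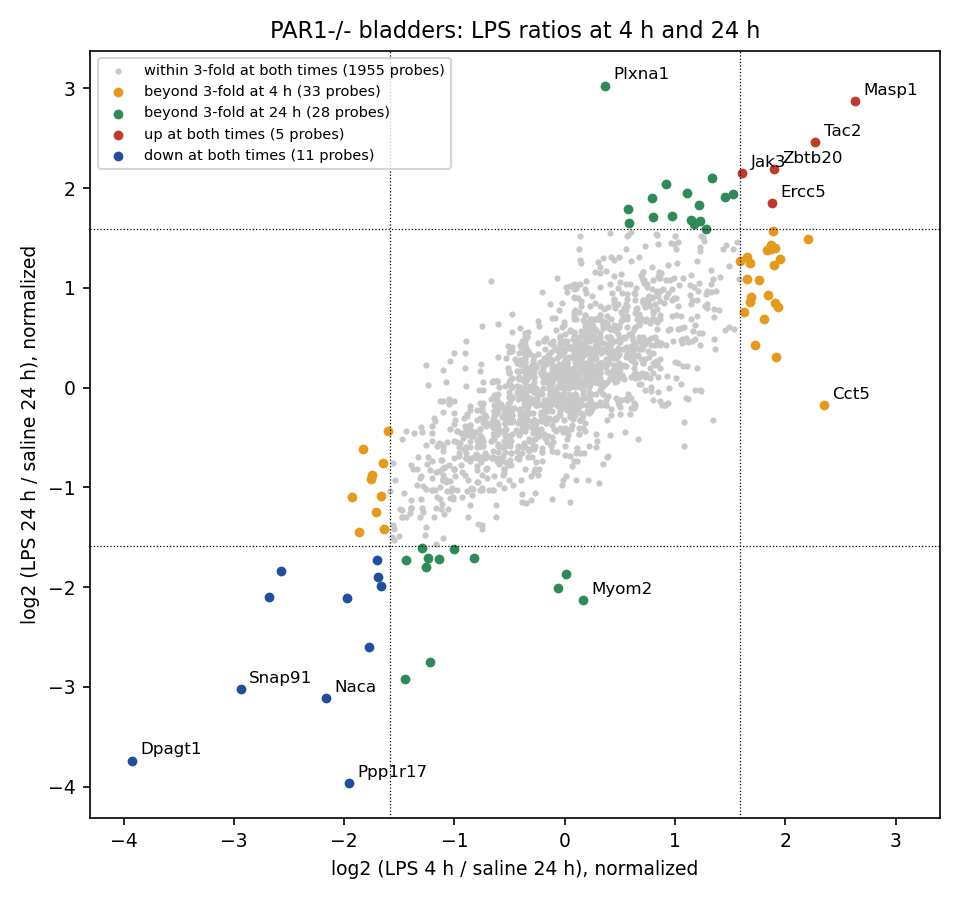
Normalized log2 ratio to saline 24 h at 4 h (horizontal axis) and at 24 h (vertical axis) after LPS in PAR1-/- bladders for the 2032 probes with a ratio or bound at both times, 1 point per probe, with bounds drawn at their value. Dotted lines mark 3-fold, 5 probes lie beyond it upward at both times and 11 downward, and the diagonal spread is partly set by the saline array that both axes share.

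The 5 genes more than 3-fold higher at both times were Masp1, Tac2, Zbtb20, Ercc5 and Jak3. Masp1 encodes a serine protease of the lectin pathway of complement. Its intensity was 10 after saline, 174 at 4 h and 217 at 24 h, so only saline was at background, and the lower bounds were 6.21 at 4 h and 7.31 at 24 h. Tac2, the precursor of the tachykinin neurokinin B, had 16 after saline, 204 at 4 h and 247 at 24 h. All 3 values were above background, and the ratios were 4.83 and 5.49. Zbtb20, a zinc finger transcription factor, had 11, 98 and 124, with lower bounds of 3.72 and 4.57. Ercc5, the XPG endonuclease of nucleotide excision repair, had 23, 253 and 260. It was 3.68-fold at 4 h and 3.61-fold at 24 h, the flattest course of the 5. Jak3, the tyrosine kinase of cytokine receptors with the common gamma chain, had 23, 205 and 333, with ratios of 3.05 and 4.44. Each of the 5 genes had LPS intensities far from its saline value and close to each other, and the direct ratio of 24 h over 4 h ran from 0.980 for Ercc5 to 1.46 for Jak3.

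Masp1, Tac2 and Ercc5 were beyond 3-fold at both times under each of 4 normalizations. Without normalization all 5 genes were, as was every gene counted as higher at either time. Set against the WT saline array in place of the PAR1-/- one, only Tac2 of the 5 remained beyond 3-fold at both times, with lower bounds of 7.33 and 8.34. Ercc5 then came to 2.98 and 2.92, Jak3 to 2.37 and 3.45, Zbtb20 to 2.11 and 2.59 and Masp1 to 1.59 and 1.87. The Masp1 intensity on the WT saline array was 38, and with saline at 38 the WT ratios after LPS were 0.846 at 4 h and 1.11 at 24 h. Tac2 in WT bladders was at least 10.5-fold at 4 h and at least 3.48-fold at 24 h. Jak3 and Ercc5 in WT bladders were 4.02-fold and 3.87-fold at 4 h, and Zbtb20 was 3.66-fold. Whether these WT and PAR1-/- ratios differ was not tested, since each rests on 2 arrays.

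**Figure D2:**
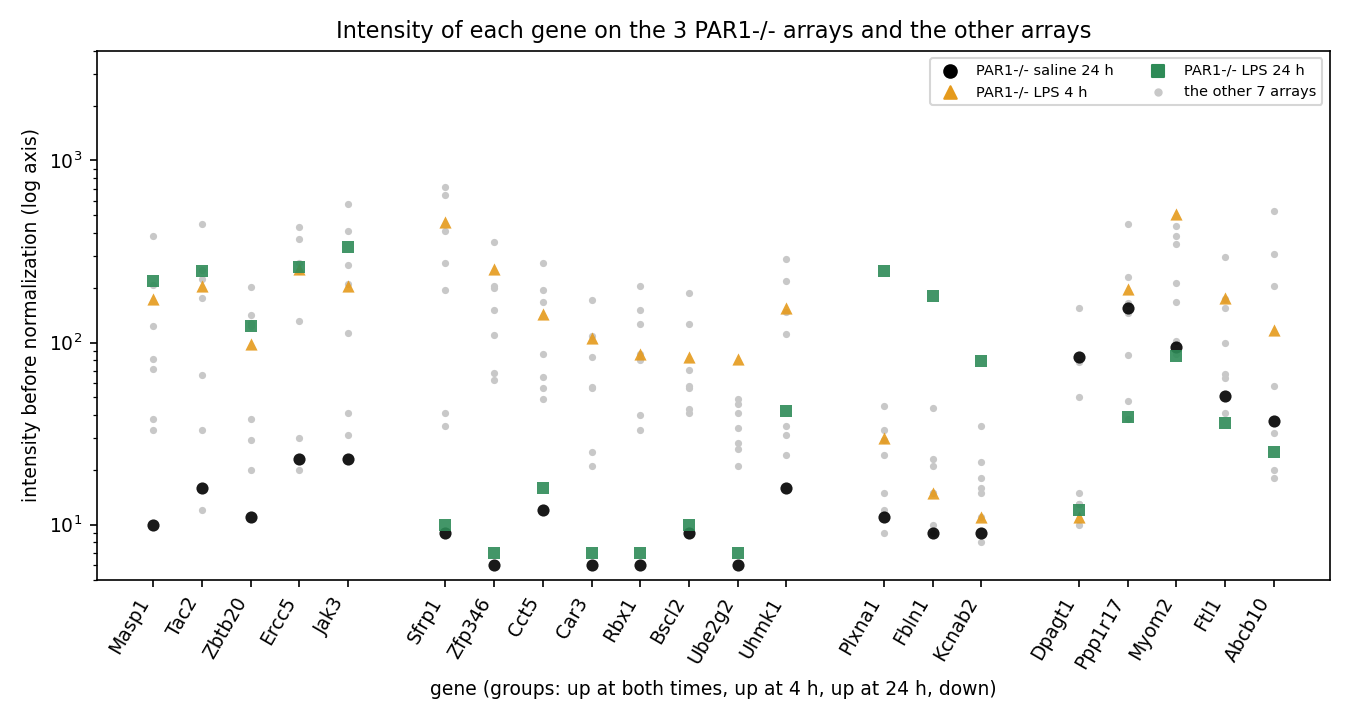
Intensity before normalization (vertical log axis) of genes higher at both times, at 4 h or at 24 h, and of genes that were lower, on the PAR1-/- arrays of saline (black circles), LPS 4 h (orange triangles) and LPS 24 h (green squares), with the other 7 arrays as grey points. Masp1 to Jak3 have both LPS points above saline, Sfrp1 to Ube2g2 have the 24 h point beside the saline point at the bottom of the scale, and Plxna1, Fbln1 and Kcnab2 stand out at 24 h.

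At 4 h alone 30 genes were more than 3-fold higher, each with 1 probe. Most of them were not back at the saline level at 24 h: 13 were still more than 2-fold and 9 between 1-fold and 2-fold, 1 was below saline and 7 had no ratio. Over all genes 127 of 2225 with a ratio or bound at 24 h were more than 2-fold higher. Both ratios share the saline array, so a larger share among the 30 is partly built in. The LPS arrays can be set against each other without saline, and there 9 of the 30 genes were more than 3-fold lower at 24 h than at 4 h. Over all genes 0.937% of 2135 were that much lower at 24 h and 0.281% were that much higher. The 30 genes were picked by high values on the same 4 h array, so a larger share among them is built in. Of the 9 genes, all but Uhmk1 were the 8 probes described below as low on the saline and 24 h arrays. Sfrp1, a secreted antagonist of WNT proteins, led the 30. Its intensity was 9 after saline, 458 at 4 h and 10 at 24 h, at least 14.8-fold at 4 h and at most 0.0616 times that level at 24 h. Zfp346, which encodes a zinc finger protein that binds double-stranded RNA, had 6, 252 and 7 and was at least 8.65-fold. Cct5, a subunit of the chaperonin that folds actin and tubulin, had 12, 144 and 16 and was 5.10-fold. Car3, a carbonic anhydrase of muscle and fat, had 6, 106 and 7 and was at least 3.99-fold. Rbx1, the RING subunit of cullin ubiquitin ligases, had 6, 87 and 7 and was at least 3.34-fold. Bscl2, the seipin of lipid droplet formation, had 9, 83 and 10, and Ube2g2, a ubiquitin-conjugating enzyme, had 6, 81 and 7. Their bounds at 4 h were 3.21 and 3.14. An unnamed probe, M20a6/b6, had 6, 169 and 7 and was at least 6.05-fold.

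These 8 probes share a pattern that the LPS contrast does not describe. On the saline and 24 h arrays 5 of them lay at the lowest value of the array, 6 and 7, and Sfrp1, Bscl2 and Cct5 lay close to background. On the other 8 arrays, WT saline included, 7 of the 8 were above background throughout. For Sfrp1 the other 8 arrays ran from 35 to 712 and for Zfp346 from 62 to 355. For Cct5 they ran from 49 to 272, for Rbx1 from 33 to 204 and for Bscl2 from 41 to 188. The unnamed probe M20a6/b6 was also low on the WT saline array, at 6. Of the 8 probes 7 carry a grid letter from M to P, the last 4 of 16 letters on the array. Those letters hold 24.97% of all probes and 2 of the other 22 probes higher at 4 h alone. Among all probes 18 were under background on the PAR1-/- saline and LPS 24 h arrays and above it on the 8 others. No probe was so for saline with LPS 4 h. Higher counts occurred only in pairs with the WT LPS 24 h array, up to 75 with WT SP 24 h. The part of the saline and 24 h arrays in these values was not tested. Without the 8 probes 27 genes remained more than 3-fold higher at 4 h. Sfrp1, Zfp346, Cct5 and M20a6/b6 were among the 14 genes beyond 3-fold at 4 h under each of 4 normalizations. In WT bladders at 4 h the ratios of Zfp346, Cct5 and Bscl2 were 0.628, 0.737 and 0.565, those of Car3, Rbx1 and Ube2g2 were 1.11, 1.20 and 1.01, and Sfrp1 was 2.90-fold.

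Among the other genes higher at 4 h alone, Adm, which encodes the vasodilator peptide adrenomedullin, had 25 after saline, 290 at 4 h and 203 at 24 h. Its ratios were 3.74 and 2.64, and the WT ratio at 4 h was 1.91. Pira1, an activating receptor of myeloid cells and B cells, had 21, 214 and 153, with ratios of 3.56 and 2.60 against 0.826 at 4 h in WT bladders. Pacsin2, which shapes membranes in endocytosis, had 23, 267 and 164 and was 3.86-fold, and Laptm4a, a lysosomal membrane protein, had 24, 270 and 219 and was 3.70-fold. Both were higher in WT bladders too, at 4.98-fold and 7.12-fold. Uhmk1, a serine/threonine kinase, had 16, 155 and 42 with ratios of 3.78 and 1.24, the lowest ratio between 24 h and 4 h (0.328) among the genes higher at 4 h alone that were above background on both LPS arrays. Tex9, named for its expression in testis, had 12, 129 and 72 and was 4.63-fold at 4 h and 2.81-fold at 24 h. These 6 genes were beyond 3-fold at 4 h under each of 4 normalizations, and without normalization every higher gene was. Meox2, a homeobox factor of mesoderm, had 12, 104 and 41 and was 3.82-fold, and Sptb, the beta spectrin of red cells, had 9, 99 and 41 and was at least 3.75-fold. Elk4, an ETS factor that acts with serum response factor, was 3.65-fold at 4 h in PAR1-/- bladders and at least 27.4-fold in WT bladders, with WT intensities of 12 after saline and 587 at 4 h against 13 and 111. Ccne2, the G1/S cyclin E2, was 3.72-fold and 8.44-fold. The 12 other genes higher at 4 h alone, Thumpd3, Cdh16, Slc6a20b, Resp18, Hltf, Ephx2, Cyb561, Nin and 4 unnamed probes, had ratios or lower bounds from 3.02 for Thumpd3 to 3.65 for probe G17c3/d3. Of the 35 genes higher at 4 h, all had a ratio or bound in WT bladders, 13 were more than 3-fold higher there (5.94% of all WT genes with a ratio were), 28 were above the WT saline level and 7 below it.

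**Figure D3:**
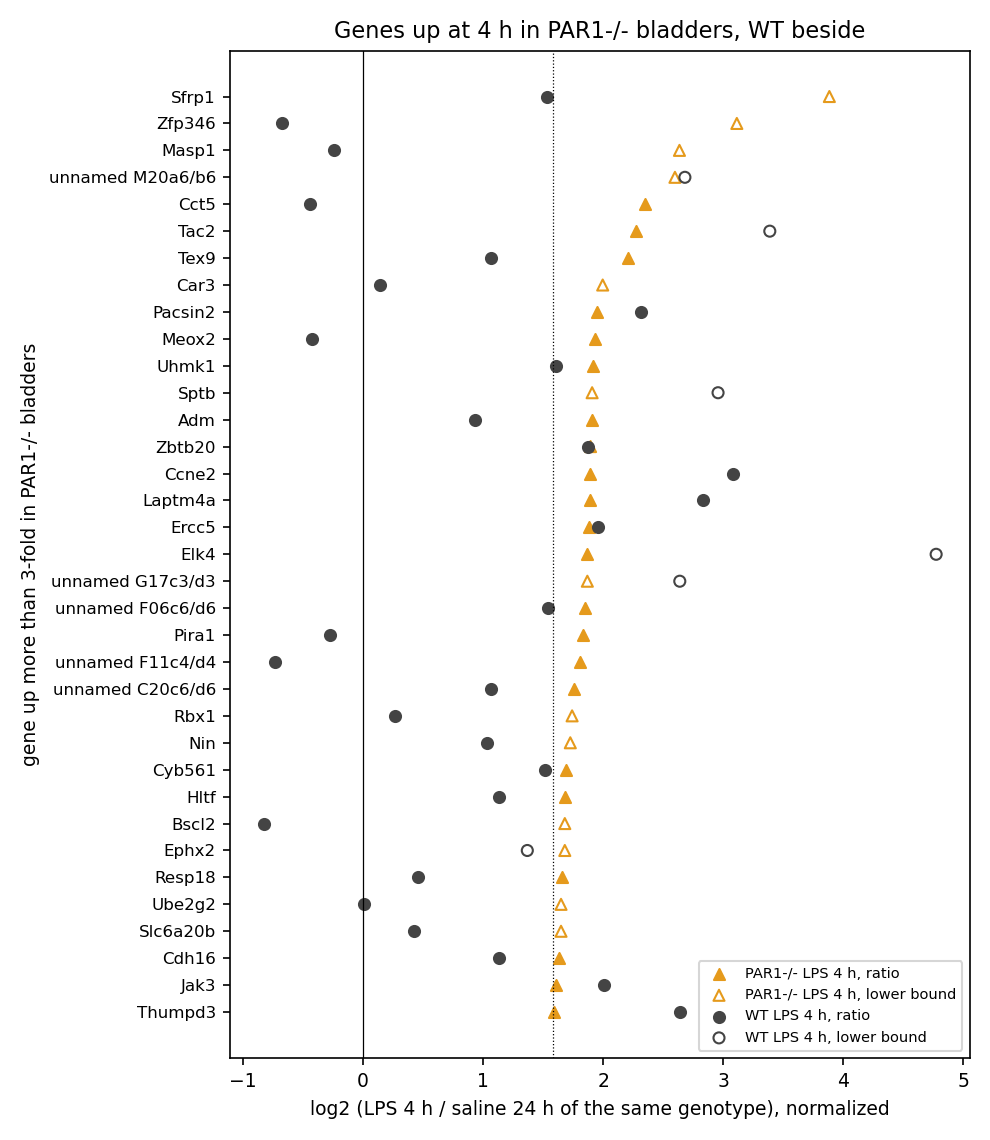
Normalized log2 ratio of LPS at 4 h to saline of the same genotype (horizontal axis) for the 35 genes more than 3-fold higher in PAR1-/- bladders (vertical axis), in PAR1-/- (triangles) and WT bladders (circles), open symbols being lower bounds. The dotted line marks 3-fold, 13 WT points lie beyond it and 7 lie below 0, and the PAR1-/- points are all beyond the line because they chose the genes.

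At 24 h alone 19 genes were more than 3-fold higher. At 4 h, 9 of them had already been more than 2-fold, 7 were between 1-fold and 2-fold and 3 had no ratio. Over all genes 137 of 2136 with a ratio or bound at 4 h were more than 2-fold higher. Both ratios share the saline array, so a larger share among the 19 is partly built in. Only 4 were more than 3-fold higher at 24 h than at 4 h when the LPS arrays were set against each other. Plxna1, a receptor for semaphorins that guide axons and immune cells, had 11 after saline, 30 at 4 h and 247 at 24 h. It was at least 8.15-fold at 24 h, and 6.32-fold the level at 4 h. The other 7 arrays gave at most 45 for it. Fbln1, the extracellular matrix protein fibulin-1, had 9, 15 and 180 and was at least 6.25-fold against saline and at least 7.81-fold against 4 h. Kcnab2, a beta subunit of voltage-gated potassium channels, had 9, 11 and 79 and was at least 3.13-fold against saline and at least 3.91-fold against 4 h. An unnamed probe, L20a7/b7, had 9, 12 and 103 with lower bounds of 3.91 and 4.88. All 4 were under background on the saline array and 3 of them at 4 h as well. In WT bladders at 24 h after LPS each had an intensity of 15, the value of 86.9% of the probes on that array.

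The remaining genes climbed from 4 to 24 h or stayed near the level of 4 h. Tnfrsf18, the T cell costimulatory receptor GITR, had 18, 117 and 221, with ratios of 2.53 and 4.30. Acin1, a factor of chromatin condensation in apoptosis, had 13, 53 and 128, with ratios of 1.89 and 4.12, and was at least 8.46-fold at 4 h in WT bladders. Pdgfrb, the PDGF receptor of pericytes and fibroblasts, had 12, 55 and 105, with ratios of 2.16 and 3.86. Cdh2, N-cadherin, had 15, 59 and 142, with ratios of 1.73 and 3.74. Rgs4, which switches off G protein signals, had 25, 217 and 318, with ratios of 2.89 and 3.84, and was 7.05-fold at 4 h in WT bladders. Fbxo17, an F-box protein of ubiquitin ligases, had 33, 154 and 426, with ratios of 1.49 and 3.45, and Pdk4, which restrains pyruvate dehydrogenase, had 25, 164 and 247, with ratios of 2.25 and 3.11. Ccl11, the eosinophil chemoattractant eotaxin, had 11, 58 and 92 with lower bounds of 2.33 and 3.55, and Epx, eosinophil peroxidase, had 14, 75 and 105, with ratios of 2.34 and 3.17. In WT bladders at 4 h Ccl11 was 1.02-fold and Epx 7.70-fold. Ercc4, the XPF subunit of another endonuclease of excision repair, had 14, 54 and 109, with ratios of 1.74 and 3.27. Zfpm2, Pfpl, Maged1 and Rpsa, and Irf2, which is described with the interferon genes, made up the rest, with ratios or bounds at 24 h from 3.02 for Maged1 to 3.77 for Pfpl. Ccl11 and Epx were not beyond 3-fold under a median shift of the arrays, under which Tnfrsf18, Acin1, Cdh2, Rgs4, Fbxo17 and Pdk4 still were. Of the 24 genes higher at 24 h, 12 had a ratio or bound in WT bladders at 24 h, where 86.9% of the probes on the array hold the value 15. Of these, 1 was more than 3-fold higher there (1.72% of all WT genes with a ratio were), 10 lay above WT saline and 2 below.

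Among the lower genes, Dpagt1, the enzyme of the first step of N-glycan assembly, stood alone. Its intensity was 83 after saline, 11 at 4 h and 12 at 24 h, so both LPS arrays were under background, and it was at most 0.0660 and at most 0.0749 times the saline level. It was the only gene more than 3-fold lower at both times without normalization as well. Dpagt1 was also low on the PAR1-/- arrays of SP, at 15 and 10. In WT bladders it was 50 after saline, 13 at 4 h and 155 at 24 h after LPS. Ppp1r17, an inhibitor of protein phosphatases, had 155, 197 and 39. It was 0.258 times the saline level at 4 h, where its intensity before normalization was above saline, and 0.0641 at 24 h, where it was lower both ways. Naca, the alpha subunit of the nascent polypeptide-associated complex, had 73, 57 and 25, with ratios of 0.222 and 0.115. Before normalization these were 0.781 and 0.342. Snap91, a clathrin assembly protein of nerve endings, had 309, 246 and 241, the highest saline value on the array. Its ratios of 0.130 and 0.123 became 0.796 and 0.780 before normalization. Pspn, the neurotrophic factor persephin, had 42, 19 and 31, with ratios of 0.169 and 0.280. Naca, Snap91 and Pspn were lower at both times under each of the 4 normalizations, and the intensity of each lay below that of saline. The 11 also included Hoxd10, Fem1a, Cbx2, Acta2 and an unnamed probe, D10c6/d6. For Fem1a, which had 224, 329 and 315, and Cbx2, a Polycomb protein, which had 168, 277 and 225, the normalized ratios were 0.255 and 0.232 and 0.316 and 0.253, but both LPS intensities were above saline, and the direction turned without normalization.

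Among the 12 genes lower at 24 h alone, 3 were also more than 3-fold lower than at 4 h. Myom2, a myomesin of the sarcomere, had 95 after saline, 508 at 4 h and 84 at 24 h, with ratios of 1.12 and 0.228 and a ratio of 0.203 between the LPS arrays. Ftl1, the ferritin light chain, had 51, 175 and 36, with ratios of 0.959 and 0.248, and Abcb10, a transporter of the inner mitochondrial membrane, had 37, 117 and 25, with ratios of 1.01 and 0.274. Their ratios between the LPS arrays were 0.258 and 0.272. The value at 4 h was the highest of the 3 for each of them, while the normalized level at 4 h was close to saline. Cyp3a13, a cytochrome P450, had 66, 103 and 29 and was 0.149 times saline at 24 h. The 8 others, B9d1, Ctsk, Fancc, Oat, Rnf14, Siah1b, Tsnax and an unnamed probe, D22c5/d5, lay between 0.132 and 0.328 at 24 h. Of the 10 genes lower at 4 h alone, Slc26a4, an anion exchanger, had 64, 57 and 108, Xrn2, a nuclear exonuclease, had 75, 75 and 103 and Chst3, a chondroitin sulfotransferase, had 44, 36 and 91. Their ratios at 4 h were 0.263, 0.275 and 0.281. The 7 others, Hk2, Insm2, Acot1, Prdx3, Ilk, Tpsg1 and Efna5, had ratios or bounds from 0.296 for Hk2 to 0.330 for Tpsg1. All 10 stayed below saline at 24 h after normalization, and none was more than 3-fold higher at 24 h than at 4 h.

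**Figure D4:**
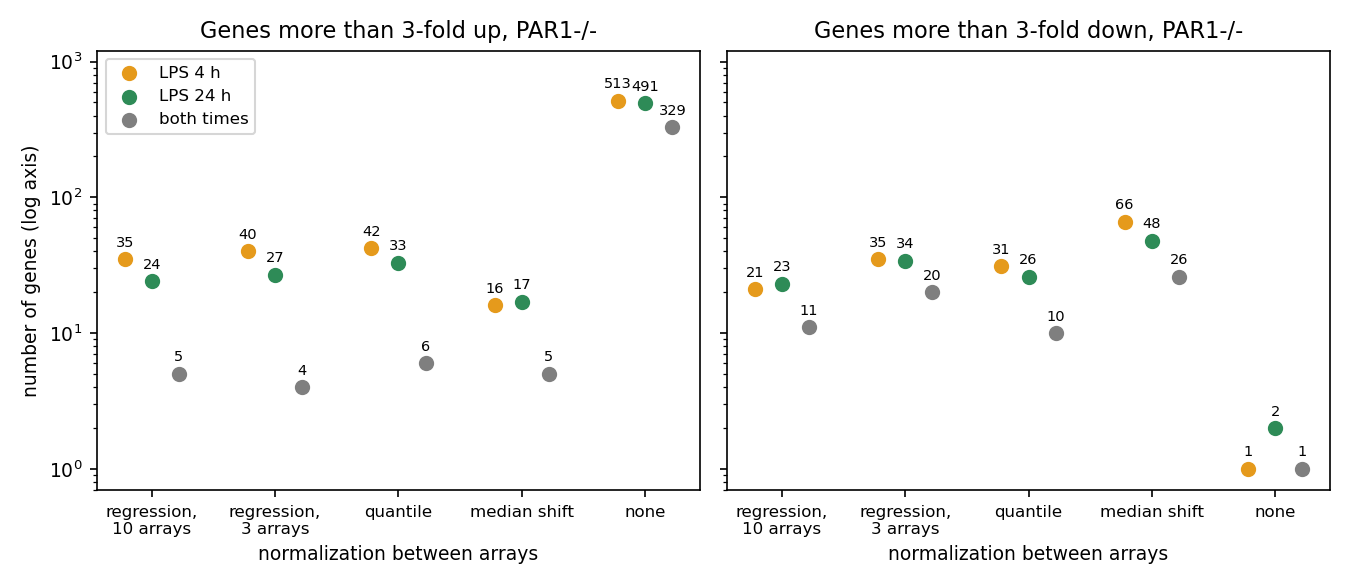
Number of genes more than 3-fold higher (left) or lower (right) than saline in PAR1-/- bladders (vertical log axis) at 4 h, at 24 h and at both times, under 5 treatments of the arrays (horizontal axis). The higher genes number 16 to 42 at 4 h and 17 to 33 at 24 h with any normalization, and without one 513 and 491 genes were higher and 1 and 2 lower.

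Genes of LPS sensing and its targets were mostly within 3-fold. Of 9 LPS sensing genes with a value, 6 had a ratio or bound and none was beyond 3-fold, against 1.64% and 1.08% of all genes higher at 4 and 24 h. Their median was 1.053-fold at 4 h and 1.08-fold at 24 h, and over all probes it was 0.922 and 0.997. Myd88, the adaptor of TLR4, had 23 after saline, 135 at 4 h and 140 at 24 h, with ratios of 2.10 and 2.14. Ly96 had 30, 55 and 59, with ratios of 0.670 and 0.739, and Lbp, the LPS-binding protein, had 20, 56 and 54, with ratios of 1.14 and 1.15. The LPS intensities of all 3 genes were above saline before normalization.

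Of 27 acute cytokines and NF-kappaB targets, 14 were above background on at least 1 of the 3 arrays and none was beyond 3-fold at either time. Their median ratios were 0.784 and 0.884. Tnf had 29 after saline, 94 at 4 h and 47 at 24 h, with ratios of 1.13 and 0.637. Relb, an NF-kappaB subunit, had 22, 31 and 45, with ratios of 0.596 and 0.874, and Plau, the urokinase plasminogen activator, had 37, 175 and 140, with ratios of 1.44 and 1.17. Of 42 chemokines and chemokine receptors, 21 had a ratio at each time, and 1, Ccl11, was beyond 3-fold. Ccl2, which draws monocytes, had 31, 133 and 104, with ratios of 1.42 and 1.14, and Ccl4 had 26, 109 and 112, with ratios of 1.48 and 1.52. The median of the chemokine list was 1.07-fold and 1.11-fold. The counts of each list are read against the shares over all genes, 1.64% and 1.08% higher and 0.983% and 1.03% lower, at which a list with few ratios would be likely to hold no such gene. Among 46 interleukins and their receptors, 16 with a ratio or bound at each time, none was beyond 3-fold. The nearest of those named by rule was Il15ra, with 18, 116 and 92 and ratios of 2.51 and 2.06. Of 24 genes of the TNF superfamily and its receptors, 8 had a ratio or bound at 4 h and 10 at 24 h, and 1 was beyond 3-fold, Tnfrsf18 at 24 h.

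Immediate early genes, which switch on within minutes of a stimulus, came close to the limit in 1 case. Fos had 28 after saline, 262 at 4 h and 254 at 24 h, so that its ratios were 2.96 and 2.75. The WT intensities were 25, 488 and 92, and the WT ratio at 4 h was 9.57. In PAR1-/- bladders Fos thus had nearly the same intensity at both times. Egr3 had 17, 56 and 52, with ratios of 1.41 and 1.37, against 3.98 at 4 h in WT bladders. None of the 19 genes of this list, 8 with a ratio or bound at 4 h and 10 at 24 h, was beyond 3-fold, and the list's median was 0.825 and 1.07. Of 29 interferon response genes, 14 and 15 with a ratio or bound, 1 was beyond 3-fold. Irf2, an antagonist of IRF1, had 16, 85 and 130, with ratios of 2.21 and 3.20. Irf1 itself had 26, 34 and 34, with ratios of 0.523 and 0.558 (1.31 before normalization), against 3.71 at 4 h in WT bladders. Eif2ak2, the kinase PKR that double-stranded RNA activates, had 13, 71 and 53, with ratios of 2.45 and 1.96.

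The complement and coagulation list, which was written without Masp1, had 25 genes with a value, 17 of them above background on at least 1 array and 13 and 15 with a ratio or bound, and none beyond 3-fold. F3, tissue factor, had 65, 157 and 289, with ratios of 0.638 and 1.048, and F2, prothrombin, had 30, 118 and 91, with ratios of 1.33 and 1.06. The list of 91 proteases and protease inhibitors, written without Masp1 and without Tpsg1, a mast cell tryptase, had 36 probes with a ratio or bound at each time. In it 1 was beyond 3-fold, Ctsk (cathepsin K), with 110, 180 and 146 and a ratio of 0.301 at 24 h that was above 1 before normalization. Among 18 integrins, 5 with a ratio or bound at 4 h and 6 at 24 h, none was beyond 3-fold, and Itgav had 13, 40 and 75, with ratios of 1.47 and 2.63. The 72 genes of ubiquitin and the proteasome held Ube2g2 at 4 h and Fbxo17 at 24 h. The 103 homeobox and forkhead factors held Hoxd10 alone, a lower gene at both times, with 154, 111 and 180. Its ratios were 0.156 and 0.234, and before normalization the second was above 1. In the lists of ion channels, G protein signalling, ribosomal proteins, chaperones and energy metabolism 1 gene each was beyond 3-fold, namely Kcnab2, Rgs4, Rpsa, Cct5 and Hk2, and 2 were in the cell cycle list, among them Ccne2. No member was beyond 3-fold in the lists of apoptosis, acute phase and antioxidant defence, antigen presentation, extracellular matrix, mitogen-activated protein kinases, neurotransmitter receptors, translation factors or WNT, hedgehog, Notch and TGF-beta signalling, each with 6 to 32 probes with a ratio or bound. The WNT list was written without Sfrp1 and the matrix list without Fbln1.

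Markers of the cells that make up the bladder, or enter it, gave the following. Of 9 smooth muscle genes, Acta2, smooth muscle alpha actin, was beyond 3-fold, with 112 after saline, 152 at 4 h and 131 at 24 h. Its ratios of 0.310 and 0.269 turned to 1.36 and 1.17 before normalization. In the same list Myh11, smooth muscle myosin, had 10, 67 and 51 with lower bounds of 2.65 and 2.16. The list's median was 1.03-fold and 1.15-fold, and its summed intensity was 202, 362 and 323. Of 13 urothelial genes, 6 and 5 with a ratio or bound, none was beyond 3-fold, with Cldn3 at 34, 111 and 180 and ratios of 1.07 and 1.61. Of 19 neutrophil and macrophage genes 7 were above background on at least 1 array, 4 and 7 had a ratio or bound, and none was beyond 3-fold. S100a9, a protein that fills neutrophils, had 15, 23 and 14, which gave 0.745 at 4 h and an upper bound of 0.665 at 24 h. Summed over this list the intensity was 204, 333 and 321, while the total of the whole array was 69828, 152397 and 154023. The 17 genes of T, B and NK cells (7 with a ratio or bound at each time) and the 10 of mast cells (6 and 5) held no member beyond 3-fold. Cpa3, mast cell carboxypeptidase, was bright on all 3 arrays, at 81, 425 and 502, with ratios of 1.17 and 1.26. The mast cell list was also written without Tpsg1, which was more than 3-fold lower at 4 h. The log2 ratios or bounds of Tpsg1 were -1.60 and -0.44, and those of Mcpt1, another mast cell protease, were -1.48 and -1.29. Of 6 fibroblast markers, 2 had a ratio or bound at 4 h and 3 at 24 h. Fbln1 was the only one beyond 3-fold, while Pdgfra had 19, 77 and 61, with ratios of 1.62 and 1.36. Endothelial genes (2 with a ratio or bound at each time) and genes of nerve and glia (4 at each time) held none beyond 3-fold. Tie1, an endothelial receptor tyrosine kinase, had 45, 414 and 338, with ratios of 2.43 and 1.91.

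**Figure D5:**
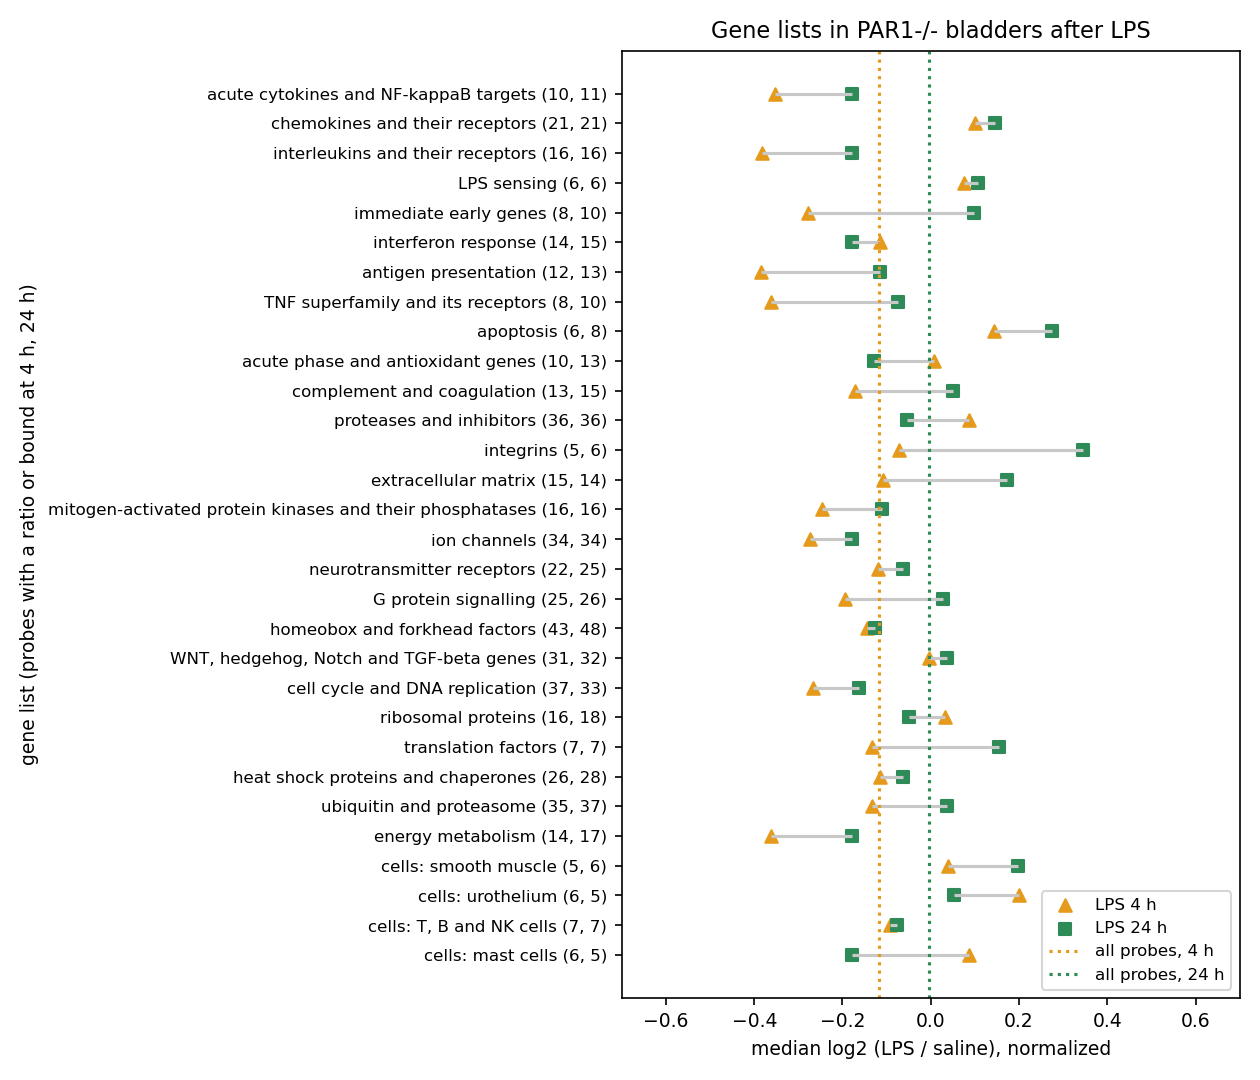
Median normalized log2 ratio to saline in PAR1-/- bladders (horizontal axis) of each gene list with at least 5 ratios or bounds at both times (vertical axis, with the number of probes at 4 and 24 h), at 4 h (triangles) and at 24 h (squares), bounds taken at their value. Dotted lines are the medians of all probes, -0.12 and 0.00 to 2 decimals, and the medians of the lists lie within 0.4 of 0.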

How the data were processed

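The authors deposited scores: over the 10 arrays the log2 values of each probe have mean 0 and a fixed SD, as read from the values. Spots had been quantified in AtlasImage. The smallest whole numbers up to 3000 that yield the scores of a probe were taken as its intensities where at most 0.05 matches were expected by chance, which assumes no factor common to all 10. Of 5030 probes, 4973 (98.9%) were recovered and 57 left out. Of 2000 simulated probes, 99.8% were recovered.

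Background was the mode of a kernel density plus 3 SD of the values below it. Arrays were scaled by robust linear regression (statsmodels 0.14.6) of log2 intensity on the 10-array mean, using the 505 probes that exceeded background everywhere. The study's methods give the regression, and its reference was chosen here. Values under background were raised to the threshold. A gene counted when a ratio or bound of 1 probe was beyond 3-fold, with the same probe required for both times. The steps were tested on simulated data. With 1 array per condition no p-value was computed, and the number of arrays limits the precision.

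Groups came from the series' description. Names came from the platform's annotation (4633 probes with 1 gene, 5 with several, 392 with none), and 4624 Entrez IDs are in the RefSeq table of GRCm38.p6. The comparison, the 35 gene lists and the rules were chosen with earlier results of these data known, and a pattern that took cyclins into the WNT list was corrected after the data were seen. The rule for named genes takes those beyond 3-fold at both times, the 10 highest and 10 lowest at each time, the 8 highest and 8 lowest between the LPS arrays, the members of each list beyond 3-fold or its brightest up to 4, and the PAR genes. The further genes beyond 3-fold at 1 time and the 8 probes low on the saline and 24 h arrays were picked after their values were seen. Promoters were not shown, since 4 of the 5 genes higher at both times had one in the table and 5 were needed. A gene counted among those lower at both times is not reported here by name.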

Additional observations from a re-analysis of the deposited data

Results flagged for a closer look

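Acta2, smooth muscle alpha actin, was, after normalization, more than 3-fold lower after LPS in PAR1-/- bladders and more than 3-fold higher in WT bladders at both times. At 4 h its ratio was 0.310 in PAR1-/- and 4.23 in WT bladders, a log2 difference of -3.77, and at 24 h it was 0.269 and 3.80, a log2 difference of -3.82. The difference was not tested, since each ratio rests on 2 arrays. The saline intensities were 112 and 23, and the LPS intensities were 152 and 131 in PAR1-/- and 194 and 136 in WT bladders. Against the same PAR1-/- saline array Acta2 was also lower after SP, at 0.0380 at 4 h and 0.290 at 24 h. Set against the WT saline array, the PAR1-/- LPS arrays gave 2.63 and 2.28, so the direction depended on the saline array. Before normalization the PAR1-/- ratios turned to 1.36 and 1.17, above saline, and the WT ratios were 8.43 and 5.91. In PAR1-/- bladders Acta2 was more than 3-fold lower under 2 of the 5 treatments of the arrays at 4 h and 3 at 24 h.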

How the results depend on the processing

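Counts of genes beyond 3-fold in PAR1-/- bladders depended mainly on the normalization and the size of change. Without normalization 513 genes were higher at 4 h, 491 at 24 h and 329 at both, and 1, 2 and 1 were lower. With a median shift 16 were higher at 4 h, and 66, 48 and 26 were lower at 4 h, 24 h and both, where the median ratio of all probes lay at -0.68 and -0.66 (log2). Regression over the 3 PAR1-/- arrays gave 35 lower genes at 4 h and 20 at both times. At more than 2-fold 137, 127 and 53 genes were higher and 150, 100 and 69 lower. Without the background floor 54 were higher and 33 lower at 4 h. Against the WT saline array 51 were higher at 24 h and 21 at both times, and 6 were lower at both. Of the genes higher against PAR1-/- saline, 18 of 35 at 4 h, 17 of 24 at 24 h and 1 of 5 at both times were shared, and of the lower genes 6 of 21, 14 of 23 and 4 of 11. The cause of these shifts was not tested, beyond the lower limit that 2-fold sets. Quantile normalization and a threshold at 2 SD kept all counts within 1.5 times, as did 2 alternatives added after the data were seen, a regression that leaves out WT LPS at 24 h and, for higher genes, leaving out 23 probes at the lowest saline value (30 genes at 4 h). Of the lower genes, quantile normalization kept 16 of 21 at 4 h, 17 of 23 at 24 h and 5 of 11 at both times. Of the higher genes it kept 34 of 35, 24 of 24 and 4 of 5. Under regression on 10 or 3 arrays, quantile normalization and median shift alike, 14 genes were higher at 4 h, 13 at 24 h and 3 at both, and 12, 15 and 5 were lower. No paired analysis was possible because each condition has 1 array. Signal limits all results: 2832 of 4973 probes had no ratio at 4 h.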
